A study of Mus musculus with 6 samples.

Results

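The mitochondrial ribosomal protein genes were taken as every gene symbol in the count files that begins with Mrpl or Mrps followed by a digit. There were 77 of them among 23238 symbols, 48 named for the large subunit (Mrpl) and 29 for the small subunit (Mrps). All 77 passed the filter on low counts, so none is missing from the values below. The data were 6 libraries of RNA 3′ ends, 3 from a mouse embryonic stem cell line with EWS-OCT4 and 3 from one with EGFP. EWS-OCT4 joins EWS, a protein of Ewing sarcoma fusions, to the pluripotency factor OCT-4, here in its A isoform and tagged with GFP, and EGFP is a green fluorescent protein that serves as the control. Both were stable lines made in the cells labelled Niwa, of strain 129/Ola, kept with the cytokine LIF. Both were also given doxycycline at 1 µg/ml to lower their own OCT-4, and no library was without it. The comparison asks how lines with and without the fusion differ once endogenous OCT-4 is lowered. Each condition was 1 stable line, so an effect of the fusion cannot be told apart from any other difference between the lines. Whether the libraries of a line are separate cultures is not stated, so that a p-value here measures the spread between these samples alone, and that spread may be technical.

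The mitochondrial ribosome translates the few messages of the mitochondrial genome, which encode core subunits of the respiratory chain. Its RNAs are made in the mitochondrion, but all of its proteins are encoded in the nucleus, translated in the cytoplasm and imported. Some are counterparts of bacterial ribosomal proteins and others are specific to mitochondria. Promoters of nuclear genes for mitochondrial proteins are known to carry sites for NRF1, for the ETS factor GABP and for YY1.

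The promoters of the members with the largest rise and the largest fall of each prefix are shown because they are the extremes of the comparison. Each line gives 150 bases that end before the annotated start, 5′ to 3′ on the plus strand, from RefSeq sequence of GRCm38.p6. Capitals mark an NRF1 motif (GCGCA followed by its reverse complement), an ETS motif (CCGGAAG) or an SP motif (GGGCGG), on either strand. Mrpl34 was added after its values were seen, as the called member with the largest rise whose stretch holds an ETS motif. The stretches are chr17:26123350-26123499 for Mrpl28, chr8:71464776-71464925 for Mrpl34, chr3:94443168-94443317 for Mrpl9, chr1:42851083-42851232 for Mrps9 and chr16:92058120-92058269 for Mrps6.
Mrpl28: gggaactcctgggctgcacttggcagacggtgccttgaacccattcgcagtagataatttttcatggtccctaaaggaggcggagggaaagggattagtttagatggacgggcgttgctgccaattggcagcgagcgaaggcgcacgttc
Mrpl34: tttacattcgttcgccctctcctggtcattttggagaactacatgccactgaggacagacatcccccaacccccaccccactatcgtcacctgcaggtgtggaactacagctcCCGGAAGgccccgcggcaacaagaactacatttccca
Mrpl9: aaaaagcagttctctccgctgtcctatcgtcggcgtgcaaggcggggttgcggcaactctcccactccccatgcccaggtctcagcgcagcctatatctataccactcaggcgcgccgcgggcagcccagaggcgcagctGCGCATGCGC
Mrps9: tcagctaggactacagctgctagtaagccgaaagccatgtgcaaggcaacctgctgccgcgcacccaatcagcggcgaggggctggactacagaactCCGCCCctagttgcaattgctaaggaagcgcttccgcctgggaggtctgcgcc
Mrps6: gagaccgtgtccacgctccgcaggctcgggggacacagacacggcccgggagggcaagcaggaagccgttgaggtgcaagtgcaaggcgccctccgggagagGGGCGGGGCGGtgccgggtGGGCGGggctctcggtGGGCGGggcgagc

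These 5 stretches had no capitalised motif in common. The stretch of Mrpl28, the largest rise, held none of the 3. An NRF1 motif closed the stretch of Mrpl9, the largest fall among the Mrpl members. The SP motif occurred once in Mrps9 and 4 times in Mrps6, where the first pair overlap.

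Values are CPM, counts scaled to library size and by TMM factors, given for libraries 1, 2 and 3 of a line in that order. Differences are log2 values of the EWS-OCT4 line over the EGFP line, with their standard error (SE) from edgeR's quasi-likelihood test and p-values adjusted by Benjamini-Hochberg over all 13467 tested genes. A gene is called higher or lower where the adjusted p is under 0.05. Because the libraries read 3′ ends, levels of single genes are not ranked against each other, and sums over members are sums of tags.

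The lines differed widely in other genes. Of all tested genes, 67.4% were called, 33.3% higher and 34.1% lower. Library totals ran from 10978025 to 12281444 counts for EWS-OCT4 and from 13239383 to 14935887 for EGFP, and no pair of libraries of a line agreed within sampling noise (chi-square per degree of freedom 3.96 and 4.21 between libraries 1 and 2 of a line, but 23.7 to 32.3 for pairs with library 3, which stood apart in both lines). The ribosomal precursor Rn45s took 7.36 to 10.5% of counts in EWS-OCT4 libraries and 5.85 to 6.44% in EGFP libraries. The 8 embryonic stem cell markers were all higher, summing to 4417 to 4940 CPM in EWS-OCT4 libraries and 262 to 317 CPM in EGFP libraries. Among them Pou5f1, the OCT-4 gene that doxycycline was given to lower, averaged only 2.21 CPM in EWS-OCT4 and 0.644 CPM in EGFP libraries. Whether reads of the fusion were counted for Pou5f1 was not tested. The 8 trophoblast markers were all lower, summing to 251 to 279 CPM in EWS-OCT4 libraries, with Plac1 at 0 in all 3, and 4677 to 5249 CPM in EGFP libraries. On these markers the EGFP libraries go against their label of embryonic stem cell. Primitive endoderm markers summed to 2.86 to 3.69 CPM in EWS-OCT4 and 30.3 to 38.8 CPM in EGFP libraries (1 of 3 tested higher, 2 lower), and feeder fibroblast markers to 20.4 to 23.9 CPM in EWS-OCT4 and 2.52 to 5.14 CPM in EGFP libraries (1 of 3 tested higher). The fibroblast marker called was Thy1, which averaged 17.9 CPM in EWS-OCT4 and 0.636 CPM in EGFP libraries and made up most of the EWS-OCT4 sum. Col1a1 and Col1a2 were not called, and Dcn and Lum were not tested. The part of these marker differences in the values of the mitochondrial ribosomal genes was not tested. In bulk RNA, fewer cells of a type and less RNA per cell cannot be told apart.

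Differences of the mitochondrial ribosomal protein genes were smaller in the median than those of all tested genes, and most of those called were higher. Of the 77 members, 32 were higher in the EWS-OCT4 line, 9 were lower and 36 were not called. The called share was thus 53.2%, against 67.4% of all tested genes and 69.8% of the 8343 tested genes within the members' range of mean CPM. By direction, 41.6% of members were higher, against 33.3% of all tested genes, and 11.7% were lower, against 34.1%. The median difference was 0.28, with quartiles of -0.13 and 0.63, against a median of 0.00 over all tested genes. In size, without regard to sign, the median difference was 0.39 for members, 0.93 for all tested genes and 0.77 for genes in the same CPM range.

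Large differences were few among the members. Only 11 of 77 (14.3%) were called and at least 2-fold, 9 higher and 2 lower, whereas 45.4% of all tested genes were, 21.8% higher and 23.6% lower. In 52 members (67.5%) the libraries of the lines did not overlap, 39 higher and 13 lower in EWS-OCT4, against 72.7% of all tested genes. For 21 members (27.3%) the 95% interval of the difference lay within 1.5-fold in either direction, a property of 10.2% of all tested genes and 14.5% of those in the same CPM range.

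**Figure D1:**
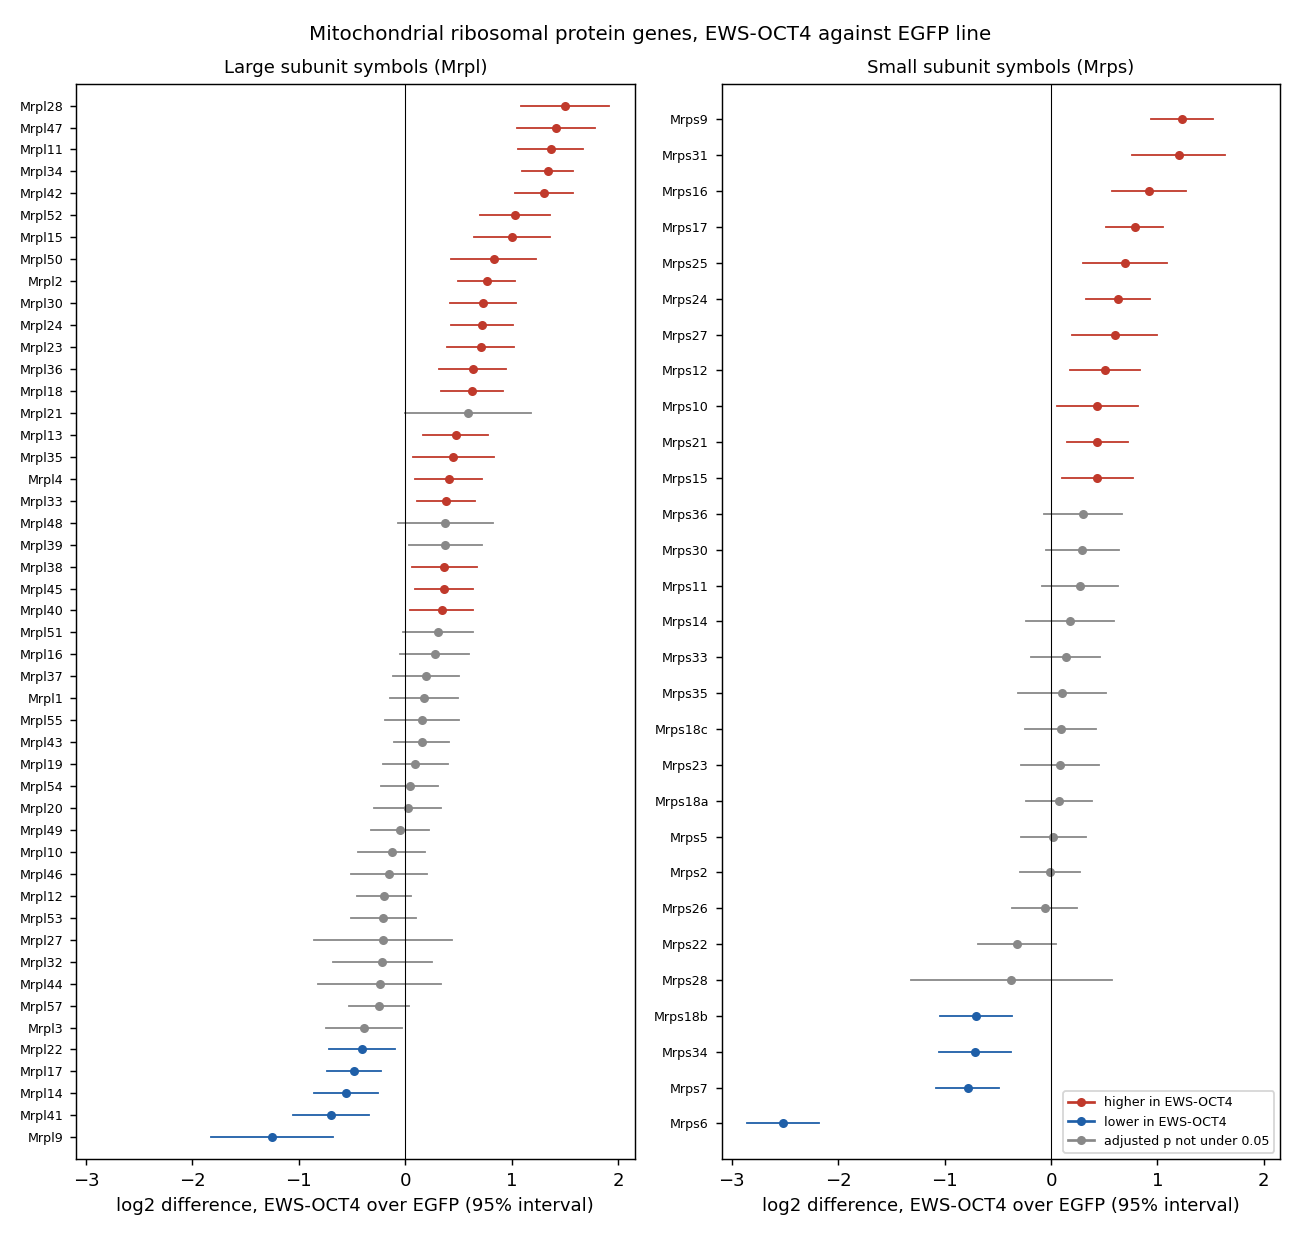
Each point is the log2 difference of EWS-OCT4 over EGFP for 1 gene with its 95% interval (x axis), with the 48 Mrpl symbols on the left and the 29 Mrps symbols on the right, ordered by difference and coloured by the edgeR call. Points run from -1.26 to 1.503 for Mrpl and from -2.52 to 1.23 for Mrps, and Mrps6 stands apart at the bottom right.

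Among the Mrpl members, 21 were higher, 5 lower and 22 not called, with a median difference of 0.33. Their called share was 54.2%, against 67.4% of all tested genes. With libraries 1 and 2 of each line alone, 23 were higher and 8 lower. The share of all tested genes called in that fit is not given here. The first of the rises was Mrpl28, the counterpart of bacterial L28 (chr17:26123500-26126613 in mm10). Mrpl28 had 94.5, 96.6 and 114 CPM in the EWS-OCT4 libraries, against 32.7, 28.9 and 46.0 CPM in the EGFP libraries. It differed by 1.503 ± 0.19 (SE, edgeR adjusted p = 5.5e-05), which is 2.83-fold. Each EWS-OCT4 library stood above the highest EGFP library, which was library 3.

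Mrpl47, a counterpart of bacterial L29 beside the polypeptide exit tunnel, had 53.6, 57.6 and 72.6 CPM in the EWS-OCT4 libraries, against 20.5, 25.2 and 23.2 CPM in the EGFP libraries. Its difference was 1.42 ± 0.17 (SE, edgeR adjusted p = 3.7e-05). The groups did not overlap, and library 3 was the highest of the EWS-OCT4 line. Mrpl11, a protein at the base of the stalk that receives translation factors, had 124, 125 and 146 CPM in the EWS-OCT4 libraries, against 46.6, 49.6 and 57.1 CPM in the EGFP libraries. That was a difference of 1.37 ± 0.14 (SE, edgeR adjusted p = 1.2e-05), with library 3 the highest in both lines and no overlap. Mrpl34, a counterpart of bacterial L34 whose promoter stretch with an ETS motif is printed above, had 245, 258 and 263 CPM in the EWS-OCT4 libraries, against 102, 100.5 and 101 CPM in the EGFP libraries. Its libraries lay close together within each line, and the difference was 1.34 ± 0.11 (SE, edgeR adjusted p = 2.7e-06).

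Both of the other members in this group are specific to mitochondria. Mrpl42 had 103, 111 and 112 CPM in the EWS-OCT4 libraries, against 43.4, 41.9 and 46.7 CPM in the EGFP libraries, a difference of 1.30 ± 0.12 (SE, edgeR adjusted p = 8.7e-06). Mrpl52 had 91.1, 96.6 and 123 CPM in the EWS-OCT4 libraries, against 52.8, 52.0 and 47.4 CPM in the EGFP libraries, a difference of 1.03 ± 0.15 (SE, edgeR adjusted p = 1.6e-04). In neither gene did the lines overlap, and the third EWS-OCT4 library of Mrpl52 lay above its other two.

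A further 15 Mrpl members were called higher, with differences of 0.34 for Mrpl40 to 1.01 for Mrpl15, and 3 of them, picked after their values were seen, are described here. Mrpl15, a counterpart of bacterial L15, averaged 41.1 ± 5.20 CPM in the EWS-OCT4 line and 20.5 ± 1.77 CPM in the EGFP line (SD, n = 3 each). Mrpl50, which is specific to mitochondria, averaged 38.9 ± 7.94 CPM in the EWS-OCT4 line and 21.9 ± 1.27 CPM in the EGFP line (SD, n = 3 each), and differed by 0.83 ± 0.18 (SE, edgeR adjusted p = 0.0022). Mrpl2, a counterpart of the bacterial protein L2 next to the peptidyl transferase centre, differed by 0.76 ± 0.12 (SE, edgeR adjusted p = 2.7e-04). All 15 were without overlap between the lines, as were 72.7% of all tested genes. Mrpl4, Mrpl13, Mrpl33, Mrpl35, Mrpl38, Mrpl40 and Mrpl45 each lost the call in at least 1 fit that left out 1 library. For Mrpl35 and Mrpl40 this was so in 4 of the 6 such fits.

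The 5 Mrpl members that were lower all had library values without overlap. Mrpl9, a counterpart of bacterial L9, had 9.95, 9.13 and 7.38 CPM in the EWS-OCT4 libraries, against 22.3, 26.6 and 14.3 CPM in the EGFP libraries. It differed by -1.26 ± 0.26 (SE, edgeR adjusted p = 0.0015) and was the only Mrpl member to fall by at least 2-fold. Library 3 was the lowest in both lines. Of the last 200 bases of its transcript, 55 match the opposite strand of the keratin gene Krt7 at 98.2% identity, and Krt7 averaged 1.34 CPM in EWS-OCT4 and 414 CPM in EGFP libraries. Whether reads of Krt7 were counted for Mrpl9 was not tested.

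Mrpl41, a mitochondria-specific protein, had 28.6, 29.7 and 23.9 CPM in the EWS-OCT4 libraries, against 42.5, 51.1 and 40.1 CPM in the EGFP libraries, a difference of -0.70 ± 0.16 (SE, edgeR adjusted p = 0.003). Mrpl14, which lies at the interface between the subunits, had 53.6, 53.2 and 60.6 CPM in the EWS-OCT4 libraries, against 91.6, 79.2 and 75.4 CPM in the EGFP libraries, a difference of -0.56 ± 0.14 (SE, edgeR adjusted p = 0.0044). All EWS-OCT4 libraries of both genes lay below all EGFP libraries. Mrpl17, a counterpart of bacterial L17, had 101, 104 and 116 CPM in the EWS-OCT4 libraries, against 145, 153 and 151 CPM in the EGFP libraries, a difference of -0.48 ± 0.12 (SE, edgeR adjusted p = 0.0039). Mrpl22, whose bacterial counterpart lines the exit tunnel, had 28.4, 32.1 and 33.4 CPM in the EWS-OCT4 libraries, against 41.7, 42.4 and 40.1 CPM in the EGFP libraries, a difference of -0.40 ± 0.14 (SE, edgeR adjusted p = 0.026). The fall of Mrpl22 was the smallest of the 5 and depended on single libraries: without EWS-OCT4 library 1 or 2 or EGFP library 1 or 2 the edgeR adjusted p was 0.11, 0.061, 0.067 or 0.073. Its difference then ran from -0.42 to -0.33.

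The 3 smallest differences among the Mrpl members show the other end of the range. Mrpl20, a counterpart of bacterial L20, had 83.8, 90.6 and 68.1 CPM in the EWS-OCT4 libraries, against 83.7, 76.9 and 78.3 CPM in the EGFP libraries, and its 95% interval was -0.29 to 0.33. Mrpl54, specific to mitochondria, had 92.7, 82.8 and 92.7 CPM in the EWS-OCT4 libraries, against 87.3, 84.1 and 89.3 CPM in the EGFP libraries, with an interval of -0.23 to 0.31. For Mrpl49, also specific to mitochondria, the values were 113, 118 and 96.7 CPM in the EWS-OCT4 libraries, against 116, 113 and 109 CPM in the EGFP libraries, and the interval was -0.32 to 0.23. The libraries of the lines overlapped in all 3 genes, and each interval lay within 1.5-fold.

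**Figure D2:**
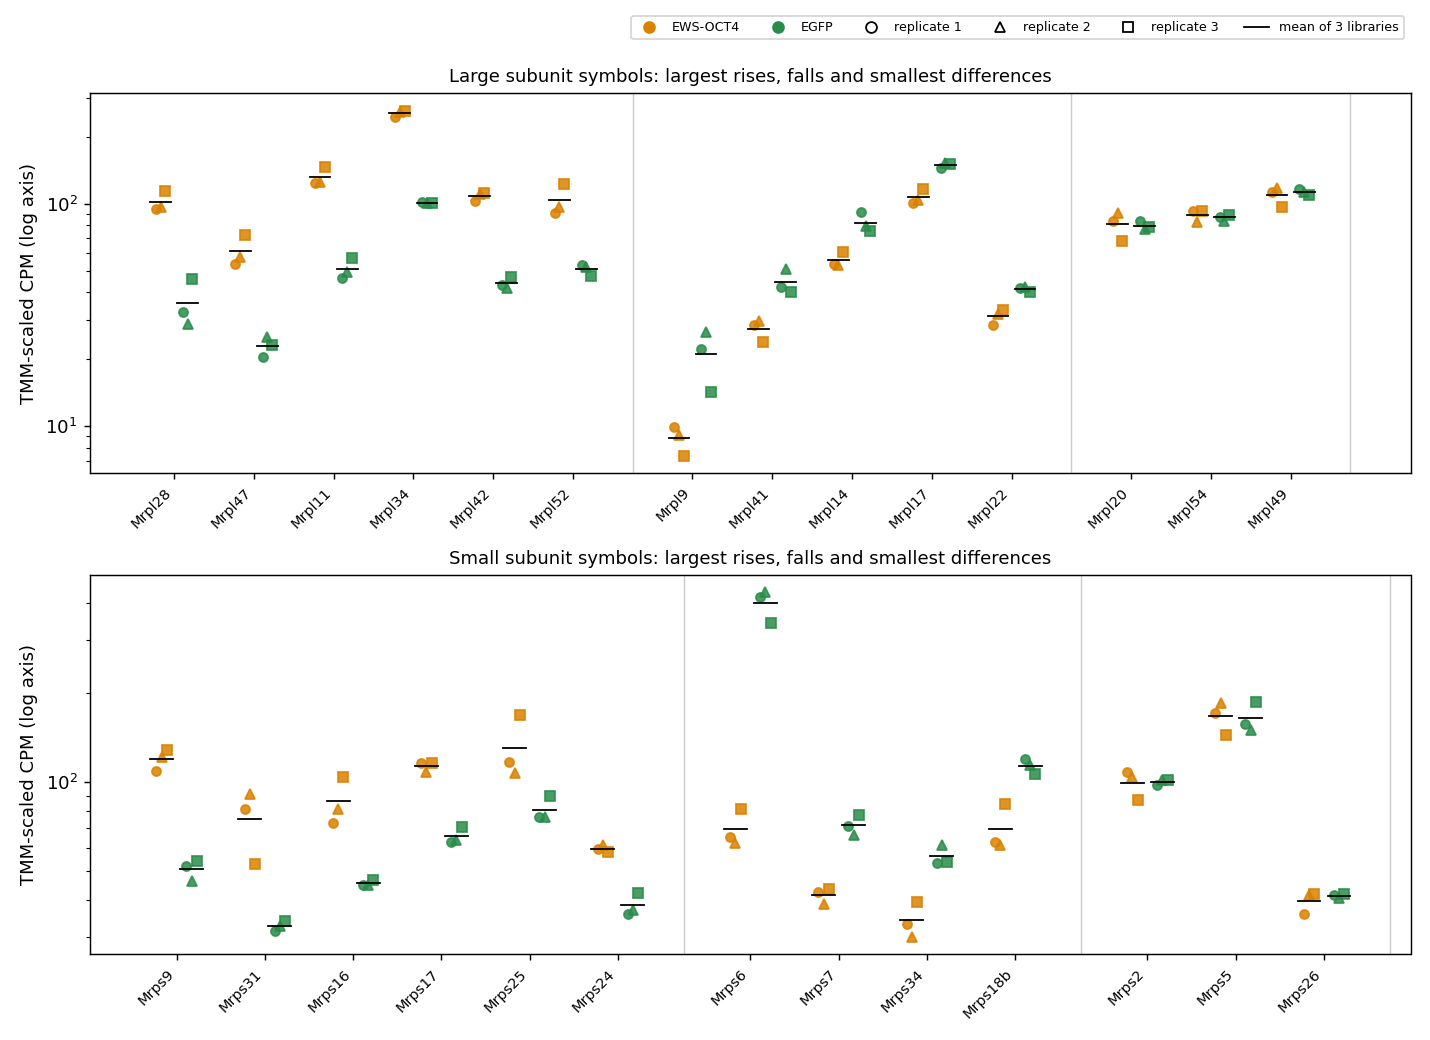
TMM-scaled CPM on a log axis for the named Mrpl (top) and Mrps (bottom) members, with EWS-OCT4 libraries to the left of EGFP libraries for each gene, 1 symbol shape per library number and a bar at the mean of 3. The left and middle blocks hold the largest called rises and falls, from Mrpl28 at 1.503 to Mrps6 at -2.52. Genes in these blocks were chosen for having no overlap between the lines. The right block shows the 3 members of each prefix with the smallest differences.

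Among the Mrps members, 11 were higher, 4 lower and 14 not called, with a median difference of 0.18. Their called share was 51.7%, against 67.4% of all tested genes. Without EGFP library 2 the number of Mrps members called higher was 7. With libraries 1 and 2 of each line alone, 15 were higher and 5 lower. For these fits too, the share of all tested genes called is not given. Mrps9, a counterpart of bacterial S9 whose tail reaches the tRNA in the P site, showed the largest rise. Mrps9 had 109, 121 and 128 CPM in the EWS-OCT4 libraries, against 52.0, 46.4 and 54.3 CPM in the EGFP libraries. The difference was 1.23 ± 0.13 (SE, edgeR adjusted p = 1.9e-05), or 2.34-fold, and all EWS-OCT4 libraries lay above all EGFP libraries.

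Mrps31, specific to mitochondria, had 80.9, 91.4 and 53.2 CPM in the EWS-OCT4 libraries, against 31.4, 32.7 and 34 CPM in the EGFP libraries. It differed by 1.20 ± 0.20 (SE, edgeR adjusted p = 3.5e-04), with EWS-OCT4 library 3 well below the other two libraries of its line but above all EGFP libraries. Mrps16, a counterpart of bacterial S16, had 72.9, 81.0 and 104 CPM in the EWS-OCT4 libraries, against 45.1, 44.9 and 46.7 CPM in the EGFP libraries, a difference of 0.92 ± 0.16 (SE, edgeR adjusted p = 4.7e-04). Here EWS-OCT4 library 3 was the highest. Mrps17, a counterpart of bacterial S17, had 116, 108 and 116 CPM in the EWS-OCT4 libraries, against 62.9, 63.6 and 70.4 CPM in the EGFP libraries, a difference of 0.79 ± 0.12 (SE, edgeR adjusted p = 2.3e-04). The spread within each line of Mrps17 was small beside the gap between them.

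Mrps25, specific to mitochondria, had 116, 108 and 168 CPM in the EWS-OCT4 libraries, against 76.2, 76.3 and 89.5 CPM in the EGFP libraries, a difference of 0.70 ± 0.18 (SE, edgeR adjusted p = 0.0054). Mrps24, a counterpart of bacterial S3 near the mRNA entry, had 59.7, 61.4 and 58.04 CPM in the EWS-OCT4 libraries, against 35.98, 37.1 and 42.5 CPM in the EGFP libraries, a difference of 0.63 ± 0.13 (SE, edgeR adjusted p = 0.0019). Both were without overlap, although EWS-OCT4 library 3 of Mrps25 was far above its other two. The last 200 bases of Mrps25 lie antisense to Nr2c2, which was at 0.61 ± 0.21 (SE, edgeR adjusted p = 0.023). Mrps24 overlaps Urgcp on the same strand, which was at -1.38 ± 0.33 (SE, edgeR adjusted p = 0.0039). The remaining 5 called rises were Mrps27, Mrps12, Mrps10, Mrps21 and Mrps15, with differences of 0.43 to 0.60. All of these but Mrps21 lost the call in at least 1 fit that left out 1 library, Mrps10 in 4 of the 6 such fits.

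Mrps6 changed more than any other member. It is the counterpart of bacterial S6, in the platform of the small subunit, and lies at chr16:92058270-92112227 in mm10. Mrps6 had 65.3, 62.5 and 81.4 CPM in the EWS-OCT4 libraries, against 419.7, 436 and 344 CPM in the EGFP libraries. The difference of -2.52 ± 0.15 (SE, edgeR adjusted p = 4.1e-07) is 5.73-fold lower in EWS-OCT4, with a 95% interval of -2.86 to -2.18. The highest EWS-OCT4 library lay far below the lowest EGFP library. Slc5a3, a myo-inositol transporter gene, is annotated within the span of Mrps6 on the same strand, and its start lies 52 bases from that of Mrps6. It averaged 16.3 ± 1.80 CPM in the EWS-OCT4 line and 169.6 ± 14.7 CPM in the EGFP line (SD, n = 3 each). Slc5a3 differed by -3.38 ± 0.15 (SE, edgeR adjusted p = 6.0e-08). Reads of either gene could have been counted for the other, and how many were was not tested.

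The other 3 falls were smaller. Mrps7, a counterpart of bacterial S7 in the head of the subunit, had 42.8, 38.7 and 43.5 CPM in the EWS-OCT4 libraries, against 71.1, 66.3 and 77.8 CPM in the EGFP libraries, a difference of -0.78 ± 0.13 (SE, edgeR adjusted p = 4.9e-04). Mrps34, specific to mitochondria, had 33.3, 30.1 and 39.4 CPM in the EWS-OCT4 libraries, against 53.3, 61.4 and 53.9 CPM in the EGFP libraries, a difference of -0.71 ± 0.15 (SE, edgeR adjusted p = 0.002). No library of one line reached the range of the other in these genes. Mif4gd, antisense to the 3′ end of Mrps7, was higher at 0.91 ± 0.16 (SE, edgeR adjusted p = 6.7e-04). Gga3, antisense to its 5′ end, was higher at 0.98 ± 0.15 (SE, edgeR adjusted p = 2.1e-04). Nme3, which overlaps Mrps34 on the same strand, was at 0.15 ± 0.15 (SE, edgeR adjusted p = 0.37), and Mapk8ip3, antisense to it, at 0.06 ± 0.23 (SE, edgeR adjusted p = 0.84).

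Mammals have 3 paralogs of bacterial S18, and of these only Mrps18b was called. Mrps18b, a mitochondria-specific small subunit protein, had 62.7, 61.2 and 84.6 CPM in the EWS-OCT4 libraries, against 119, 114 and 107 CPM in the EGFP libraries, a difference of -0.71 ± 0.15 (SE, edgeR adjusted p = 0.0021). Mrps18a, which sits in the large subunit, had 34, 35.9 and 37.7 CPM in the EWS-OCT4 libraries, against 36.5, 33.1 and 32.6 CPM in the EGFP libraries, with a 95% interval of -0.23 to 0.38. Mrps18c, which takes the place of bacterial S18 in the small subunit, had 30.04, 26.7 and 33.2 CPM in the EWS-OCT4 libraries, against 27.4, 27.7 and 29.4 CPM in the EGFP libraries, with an interval of -0.25 to 0.42. The libraries of the lines were apart for Mrps18b and overlapped for the other two. The difference between the paralogs was not tested. The 3′ end of Mrps18b matches the antisense gene Gm16279, and that of Mrps18c a processed pseudogene, Gm15946.

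Smallest in difference among the Mrps members were Mrps2, Mrps5 and Mrps26. Mrps2, a counterpart of bacterial S2, had 108, 104 and 87.0 CPM in the EWS-OCT4 libraries, against 97.4, 101 and 101 CPM in the EGFP libraries, with an interval of -0.29 to 0.27. Mrps5, whose bacterial counterpart lies at the mRNA entry, had 171, 184 and 145 CPM in the EWS-OCT4 libraries, against 157, 149 and 186 CPM in the EGFP libraries, with an interval of -0.29 to 0.33. For the mitochondria-specific Mrps26 the values were 35.9, 41.5 and 42.1 CPM in the EWS-OCT4 libraries, against 41.7, 40.7 and 42.1 CPM in the EGFP libraries, with an interval of -0.36 to 0.25. In each gene the ranges of the lines overlapped.

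A few members not called had wide spreads between libraries. Mrps28 had 23.3, 26.6 and 8.14 CPM in the EWS-OCT4 libraries, against 32.7, 29.01 and 13.3 CPM in the EGFP libraries, and its interval reached from -1.31 to 0.57. Mrpl27, a counterpart of bacterial L27 at the peptidyl transferase centre, had 48.3, 55.9 and 23.5 CPM in the EWS-OCT4 libraries, against 56.2, 55.0 and 36.4 CPM in the EGFP libraries, with an interval of -0.86 to 0.44. Library 3 was the lowest of both lines in both genes. Mrpl44, which is specific to mitochondria and related to RNase III, had 60.6, 46.2 and 25.7 CPM in the EWS-OCT4 libraries, against 49.5, 49.2 and 57.6 CPM in the EGFP libraries, with an interval of -0.82 to 0.34. In Mrpl44 library 3 was lowest in the EWS-OCT4 line and highest in the EGFP line. These 3 were picked after their values were seen. Over the 36 members not called, differences ran from -0.39 for Mrpl3 to 0.59 for Mrpl21. Nearest the threshold were Mrpl39, at 0.38 ± 0.15 (SE, edgeR adjusted p = 0.051), and Mrpl3 (edgeR adjusted p = 0.052), both without overlap between the lines. Over all members, library 3 departed by more than 0.5 on the log2 scale from the mean of libraries 1 and 2 in 10 (12.99%) in the EWS-OCT4 line and in 5 (6.49%) in the EGFP line. Of all tested genes, 31.4% did so in the EWS-OCT4 line and 25.6% in the EGFP line.

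Symbols do not map exactly onto subunits. Mrps18a and Mrps30 encode proteins found in the large subunit, and Mrps36 encodes a component of oxoglutarate dehydrogenase. By location, 21 of 50 large subunit genes were higher and 5 lower, with a median difference of 0.30, and 11 of 26 small subunit genes were higher and 4 lower, with a median of 0.16. Among large subunit genes with a bacterial counterpart, 15 of 29 were higher and 4 lower (median 0.41). Of those specific to mitochondria, 6 of 21 were higher and 1 lower (median 0.20). The small subunit had 8 of 16 higher and 2 lower with a bacterial counterpart (median 0.35), and 3 of 10 higher and 2 lower among the mitochondria-specific genes (median 0.09). By location, the called shares were 52% (large) and 57.7% (small), against 67.4% of all tested genes. With a bacterial counterpart they were 65.5% (large) and 62.5% (small), near the share of all genes. For mitochondria-specific genes they were 33.3% (large) and 50% (small). No difference between these classes was tested.

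In summed CPM, all EWS-OCT4 libraries lay above all EGFP libraries for the Mrpl members but not for the Mrps members. The Mrpl sum was 3759, 3814 and 3999 CPM in the EWS-OCT4 libraries, against 3141, 3073 and 3043 CPM in the EGFP libraries, a ratio of 1.25. The Mrps sum was 1931, 1946 and 2013 CPM in the EWS-OCT4 libraries, against 2012, 1983 and 2020.5 CPM in the EGFP libraries, a ratio of 0.979. No test was run on these sums. They add 3′ tags over genes and weigh each gene by its tags, without regard to length.

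The Mrps sum depended on Mrps6, which was left out below after its values were seen. Leaving out the member with the largest fall had to raise the ratio of EWS-OCT4 to EGFP. No member with a large rise was left out in turn. By tags, Mrps6 made up 3.55% ± 0.441 of the Mrps sum in the EWS-OCT4 line and 19.96% ± 2.61 in the EGFP line (SD, n = 3 each). Without it the Mrps sum was 1865, 1884 and 1932 CPM in the EWS-OCT4 libraries, against 1592, 1546 and 1677 CPM in the EGFP libraries, a ratio of 1.18 and no overlap. The ratio of the Mrpl sum to the Mrps sum was 1.96 ± 0.0203 in the EWS-OCT4 line and 1.54 ± 0.0290 in the EGFP line (SD, n = 3 each). With Mrps6 left out of the Mrps sum the ratio was 2.04 ± 0.0295 in the EWS-OCT4 line and 1.93 ± 0.0955 in the EGFP line, with no overlap between the libraries.

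**Figure D3:**
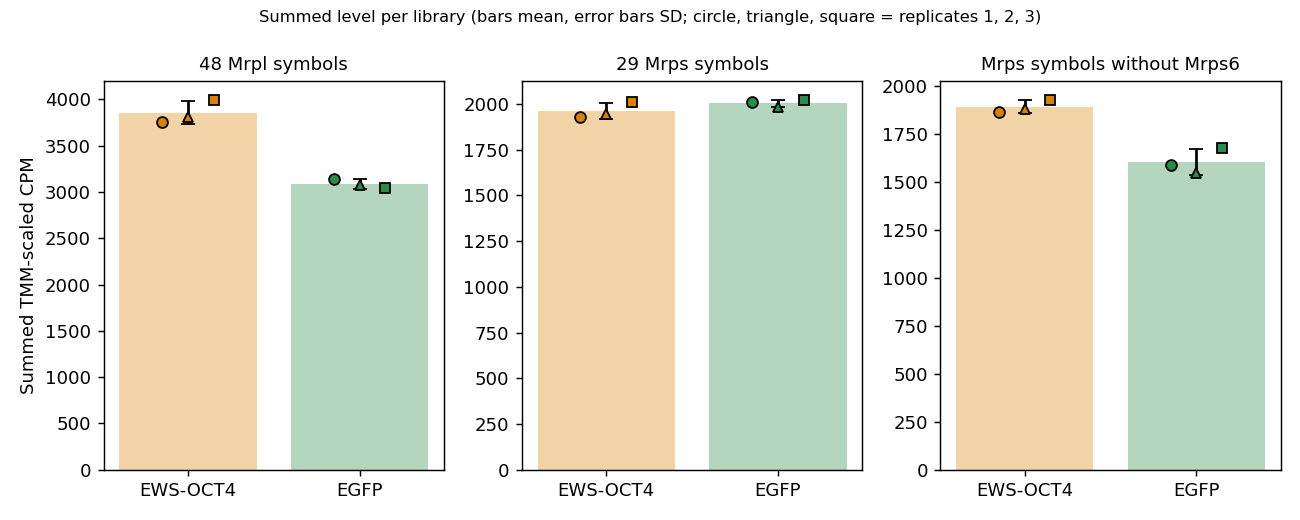
Summed TMM-scaled CPM per library for the Mrpl symbols, the Mrps symbols and the Mrps symbols without Mrps6 (bars, mean of 3 libraries, with error bars of 1 SD and a point per library), EWS-OCT4 to the left of EGFP in each panel. The lines are apart in the left and right panels (ratios 1.25 and 1.18) and overlap in the middle one (ratio 0.979). Mrps6 was left out after its values were seen, which had to raise the ratio.

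As a share of all counts, the 77 genes took 0.562% (95% exact Clopper-Pearson interval 0.558 to 0.567%), 0.567% (0.563 to 0.572%) and 0.584% (0.579 to 0.588%) in the EWS-OCT4 libraries. In the EGFP libraries they took 0.522% (0.519 to 0.526%), 0.512% (0.508 to 0.516%) and 0.522% (0.518 to 0.526%). These intervals cover counting error only. Every EWS-OCT4 library was above every EGFP library, and the ratio of means was 1.10, or 1.14 with Rn45s taken out of the totals.

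The 5 listed proteins of the mitochondrial ribosome with other names, which may not be all of them, had 2 called higher and none lower. Their median difference was 0.30. That is 40% called, against 67.4% of all tested genes. Without EWS-OCT4 library 3 the number called was 4. Dap3, a GTP-binding protein of the small subunit, averaged 116 ± 16.5 CPM in the EWS-OCT4 line and 57.8 ± 2.58 CPM in the EGFP line (SD, n = 3 each), a difference of 1.00 ± 0.14 (SE, edgeR adjusted p = 1.2e-04). Gadd45gip1, a large subunit protein, averaged 111 ± 2.41 CPM in the EWS-OCT4 line and 79.4 ± 4.37 CPM in the EGFP line (SD, n = 3 each), a difference of 0.48 ± 0.12 (SE, edgeR adjusted p = 0.0039). The lines were apart in both genes.

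Of 16 translation factors that work with the mitochondrial ribosome, 3 were higher, 3 lower and 10 not called, with a median of -0.24. The called share was 37.5%, against 67.4% of all tested genes. Those were also split in direction, 33.3% higher and 34.1% lower. Only 3 factors were called without EWS-OCT4 library 2, EGFP library 1 or EGFP library 2. Mtfmt, which formylates the initiator methionyl-tRNA, averaged 9.74 ± 0.747 CPM in the EWS-OCT4 line and 17.7 ± 1.93 CPM in the EGFP line (SD, n = 3 each), a difference of -0.86 ± 0.19 (SE, edgeR adjusted p = 0.0024). 2810006K23Rik differed by 0.65 ± 0.18 (SE, edgeR adjusted p = 0.0087). Tsfm, an elongation factor, differed by 0.73 ± 0.27 (SE, edgeR adjusted p = 0.035), and Mtif2, an initiation factor, by -0.33 ± 0.13 (SE, edgeR adjusted p = 0.047). The call of Tsfm held in 1 and that of Mtif2 in 2 of the 6 fits that each left out 1 library.

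Of 24 genes for assembly of the mitochondrial ribosome and modification of its RNA, 8 were higher, 2 lower and 14 not called, with a median of 0.17. Their called share was 41.7%, against 67.4% of all tested genes. Without EGFP library 1 or EGFP library 2, 6 were called. Mtg1, a GTPase of large subunit assembly, averaged 15.9 ± 2.99 CPM in the EWS-OCT4 line and 7.15 ± 1.59 CPM in the EGFP line (SD, n = 3 each), a difference of 1.15 ± 0.24 (SE, edgeR adjusted p = 0.0019). Nsun4, an rRNA methyltransferase, averaged 25.8 ± 5.47 CPM in the EWS-OCT4 line and 12.2 ± 0.785 CPM in the EGFP line (SD, n = 3 each), a difference of 1.08 ± 0.20 (SE, edgeR adjusted p = 7.3e-04). Rnmtl1, another rRNA methyltransferase, was at -0.70 ± 0.21 (SE, edgeR adjusted p = 0.012) and was not called without EGFP library 1 (edgeR adjusted p = 0.058). Noa1, a GTPase, was at -0.67 ± 0.26 (SE, edgeR adjusted p = 0.041), a call that held only without EGFP library 3 among the 6 fits that each left out 1 library.

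Mitochondrial aminoacyl-tRNA synthetases charge tRNAs for this ribosome. Their list, called synthetases below, also holds the glutaminyl-tRNA amidotransferase genes Qrsl1, Gatb and Gatc. It had 8 of 20 genes higher, Gatb among them, 1 lower and 11 not called, with a median of 0.23. Called were thus 45%, against 67.4% of all tested genes. The number called was 5 without EWS-OCT4 library 1 and 4 without EGFP library 2. Cars2 averaged 31.8 ± 6.45 CPM in the EWS-OCT4 line and 14.4 ± 3.70 CPM in the EGFP line (SD, n = 3 each), a difference of 1.14 ± 0.22 (SE, edgeR adjusted p = 0.0012). Iars2 averaged 132 ± 4.01 CPM in the EWS-OCT4 line and 73.5 ± 3.66 CPM in the EGFP line (SD, n = 3 each), a difference of 0.84 ± 0.12 (SE, edgeR adjusted p = 1.1e-04).

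Of 14 genes for mitochondrial DNA maintenance, transcription and RNA processing 12 were tested, with 4 higher, 2 lower and a median of 0.14. The called share of those tested was 50%, against 67.4% of all tested genes. Without EGFP library 1 or 2, 3 were called. Hsd17b10, a subunit of mitochondrial RNase P, averaged 76.8 ± 4.85 CPM in the EWS-OCT4 line and 33.7 ± 2.03 CPM in the EGFP line (SD, n = 3 each), a difference of 1.19 ± 0.13 (SE, edgeR adjusted p = 2.6e-05). Polg, the mitochondrial DNA polymerase, averaged 49.996 ± 2.12 CPM in the EWS-OCT4 line and 95.6 ± 5.10 CPM in the EGFP line (SD, n = 3 each), a difference of -0.94 ± 0.12 (SE, edgeR adjusted p = 8.5e-05). Tfb2m, a mitochondrial transcription factor, was at -0.72 ± 0.17 (SE, edgeR adjusted p = 0.0036), and Peo1, the DNA helicase, at 0.46 ± 0.18 (SE, edgeR adjusted p = 0.039). Peo1 was called in 1 of the 6 fits that each left out 1 library.

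Of 9 regulators of mitochondrial biogenesis, 8 were tested, with 2 higher, 3 lower and 3 not called. The called share of 62.5% was near the 67.4% of all tested genes. Those too were called in both directions, 33.3% higher and 34.1% lower. Esrra, an orphan nuclear receptor, averaged 251 ± 20.01 CPM in the EWS-OCT4 line and 100.3 ± 8.94 CPM in the EGFP line (SD, n = 3 each), a difference of 1.32 ± 0.12 (SE, edgeR adjusted p = 7.7e-06). Pprc1, a coactivator, differed by 0.59 ± 0.13 (SE, edgeR adjusted p = 0.002). Ppargc1b, a related coactivator, averaged 7.74 ± 1.51 CPM in the EWS-OCT4 line and 56.3 ± 2.78 CPM in the EGFP line (SD, n = 3 each), a difference of -2.86 ± 0.18 (SE, edgeR adjusted p = 5.9e-07). Myc averaged 0.732 ± 0.523 CPM in the EWS-OCT4 line and 19.9 ± 5.82 CPM in the EGFP line (SD, n = 3 each), a difference of -4.77 ± 0.47 (SE, edgeR adjusted p = 1.2e-05). Factors whose motifs were searched for in the promoters were read as well. Yy1 was the third of the lower genes at -1.57 ± 0.13 (SE, edgeR adjusted p = 4.2e-06). Nrf1 and the subunits of GABP, Gabpa and Gabpb1, were not called, at 0.12 ± 0.17, 0.10 ± 0.16 and -0.39 ± 0.16 (SE), with 95% intervals of -0.25 to 0.49, -0.25 to 0.45 and -0.74 to -0.03.

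For comparison, 82 of 84 cytoplasmic ribosomal protein genes were higher and none lower, with a median of 1.24. Nuclear-encoded genes of the respiratory chain had 53 of 79 tested higher and 2 lower, with a median of 0.64. The mitochondrial ribosomal genes, at 32 of 77 higher, 9 lower and a median of 0.28, had the smaller share called higher and the lower median. The differences between these lists were not tested.

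**Figure D4:**
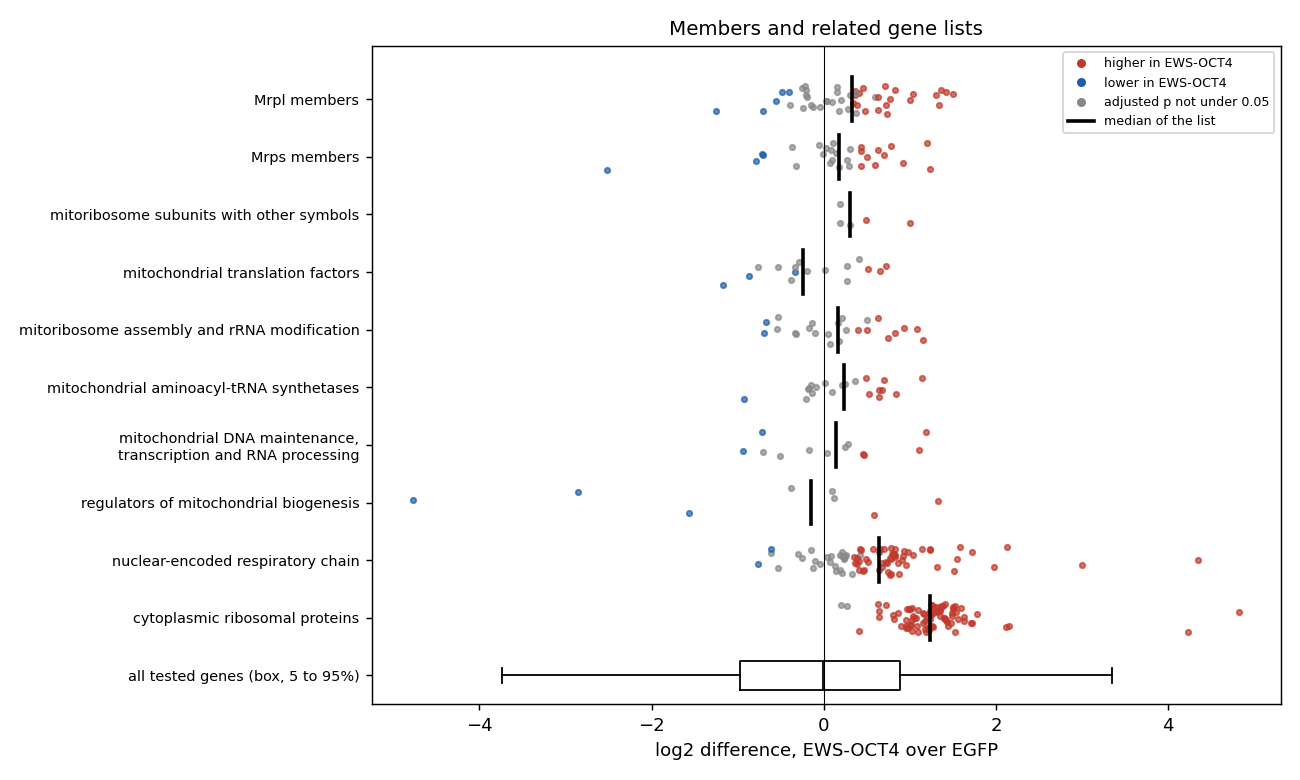
Log2 difference of EWS-OCT4 over EGFP (x axis) for each tested gene of the Mrpl and Mrps members and 8 related lists (points, coloured by the edgeR call, with a bar at each median), over a box of all tested genes. Medians of the Mrpl and Mrps members are 0.33 and 0.18, below those of the respiratory chain (0.64) and the cytoplasmic ribosomal proteins (1.24).

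Promoter windows from RefSeq, 250 bases before to 50 after each start, were matched for 68 members with 74 windows, and 9 members had none. The ETS motif was in 25 windows (33.8%), against 8.86% of all 32851 windows and 16.7% of windows of tested genes. YY1 (AAGATGGC) was in 12 (16.2%), against 2.75% of all windows and 4.24% of those of tested genes. NRF1 was in 3 (4.05%), against 0.971% and 2.01% of the same sets. The SP motif was in 39 (52.7%), against 35.7% of all windows and 62.3% of those of tested genes. An E-box (CACGTG) was in 7 (9.46%), against 7.15% and 10.03%, and the octamer ATGCAAAT in none, against 1.74% and 1.30%. These are counts of windows and not of genes, so a member with several starts counts more than once. The windows of Mrpl2 overlap and all hold the E-box, and Mrpl48 and Mrps16 also have several windows. Each motif was searched on both strands, with overlapping matches allowed. By call, the ETS motif was in 8 of 31 windows of higher members, 3 of 8 of lower members and 14 of 35 of members not called. A match is a description of the letters and not a bound site.

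Some members share their promoter region with another gene. Counted here are head-to-head partners, tested coding genes on the opposite strand that start upstream of a gene within 1000 bases and so do not overlap it. Such a partner was found for 18 members (23.4%) and for 9.14% of the 12412 tested coding genes. Partners that overlap a member at its start were not counted in either share, nor were genes on the same strand, such as Slc5a3 for Mrps6. Among the overlapping pairs left out, both genes were higher in Mrpl36 and Ndufs6, Mrpl18 and Tcp1, and Mrpl47 and Ndufb5. Mrps7 was lower and Gga3 higher. Of the 18 head-to-head partners 5 were higher, 5 lower and 8 not called. Both genes were called in 4 of these 18 pairs. Mrps27 and Ptcd2 were both higher and Mrps34 and Eme2 both lower, while Mrpl2 and Mrpl30 were higher beside lower partners, Klc4 and Mitd1. Mrpl51 was not called and its partner Ncapd2, a condensin subunit, was at 1.84 ± 0.17 (SE, edgeR adjusted p = 8.6e-06). Mrpl54 was not called and its partner Apba3 was at -1.93 ± 0.29 (SE, edgeR adjusted p = 2.0e-04).

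The tested coding genes nearest to members along the chromosome, by start, were called about as often as all tested genes. Genes that are not coding were passed over as neighbours but are among all tested genes. Of 152 pairs of a member and a flanking tested coding gene, 62 (40.8%) had a neighbour with a difference of at least 2-fold, against 47.03% of all tested genes. In 68.4% of pairs the neighbour was called, against 67.4%. Mrpl23, picked after its values were seen, had Lsp1 (-6.86) and Igf2 (-9.83) as its nearest tested coding genes. Both were lower, and Mrpl23 was itself higher at 0.71 ± 0.14 (SE, edgeR adjusted p = 0.0013). Mrpl23 averaged 41.4 ± 2.97 CPM in the EWS-OCT4 line and 25.3 ± 1.38 CPM in the EGFP line (SD, n = 3 each), without overlap. Its last 200 bases match the pseudogene Mrpl23-ps1.

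Reads of some members cannot be assigned with certainty, because the use of strand in counting is not given in the sources used here. The last 200 bases of 18 members match another annotated gene over at least 50 bases at 95% identity or more, 9 of them a gene in the files. By annotation, 3 members overlap another gene on the same strand and 20 one on the opposite strand. Mrpl22, Mrpl41 and Mrps21 match processed pseudogenes. Mrpl47 lies antisense to Actl6a, at 0.96 ± 0.13 (SE, edgeR adjusted p = 8.2e-05), and to Ndufb5, at 0.44 ± 0.13 (SE, edgeR adjusted p = 0.011). Mrpl24 lies antisense to Rrnad1, at 0.57 ± 0.12 (SE, edgeR adjusted p = 0.0019), and Mrpl49 to Syvn1, at -0.71 ± 0.25 (SE, edgeR adjusted p = 0.031).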

How the data were processed

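Each of the 6 libraries had 1 deposited file of whole-number counts by gene symbol. RNA was extracted with Trizol and 500 ng was used for Lexogen QuantSeq libraries of 3′ ends, per the labels' protocols. Bowtie2, edgeR and the build mm10 are listed per the submitters' processing notes, without versions. Strand use, annotation and counting tool were not given in the sources used here. Lines of 35 repeated symbols were summed.

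After TMM scaling and filterByExpr (minimum count 10, minimum total 15), 13467 of 23238 symbols were tested in edgeR 4.0.16 (R 4.3.3) with the robust quasi-likelihood test, EWS-OCT4 over EGFP, 2-sided and without covariates, adjusted by Benjamini-Hochberg at 0.05. The SE is the difference divided by the square root of F. At these depths 1 count stood for 0.0670 to 0.0911 CPM. Samples were grouped by their titles. The test was also run on simulated data, but no setting or result of that run is given here. That run therefore does not show how often calls in these libraries are false. Gene positions and overlaps came from GENCODE M21 for GRCm38, and promoters from RefSeq on GRCm38.p6. Proteins were not used here.

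The members, the related lists and the promoter motifs were chosen with earlier results of these data known. The text names, within each prefix, up to 6 of the largest called rises and falls with a mean of at least 10 CPM and no overlap, the 3 smallest differences, the Mrps18 paralogs, and up to 2 called rises and falls of each related list. The respiratory chain and cytoplasmic ribosomal proteins are given as counts. Other genes are marked as seen first, or stand in the text as overlaps or neighbours of a member. Alternatives left out each library, used libraries 1 and 2 alone, added a replicate block, and changed the scaling, the filter, the tool (limma-voom with limma 3.58.1, DESeq2 1.42.0) or the threshold.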

Additional observations from a re-analysis of the deposited data

How the results depend on the processing

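No called member changed direction under any of the 18 alternatives, 13 of 41 kept their call in all 18, and 29 in the 16 that did not change the threshold. Of the 36 members not called, 18 were called under some alternative and 14 changed sign under some alternative. The share of all tested genes called under each alternative is not given here. Counts of calls under an alternative, here and above, therefore cannot be set against all genes. Leaving out 1 library at a time ended 12 of the 41 calls in at least 1 fit. The number of members called higher was then 15 to 20 for Mrpl and 7 to 13 for Mrps, and the number lower 4 to 6 for Mrpl and 4 to 5 for Mrps. Medians then ran from 0.23 to 0.34 for Mrpl, 0.12 to 0.27 for Mrps, -0.25 to -0.15 for translation factors, 0.11 to 0.28 for synthetases, -0.12 to 0.20 for the DNA and transcription list, -0.23 to -0.12 for regulators and 0.58 to 0.65 for the respiratory chain. Numbers called ran from 2 to 4 for the subunits with other symbols, 3 to 7 for translation factors, 6 to 11 for assembly, 4 to 9 for synthetases and 3 to 9 for the DNA and transcription list. Among the smallest differences, none called in these fits, Mrpl20 ran from -0.066 to 0.13, Mrpl49 from -0.11 to 0.035, Mrps2 from -0.066 to 0.081, Mrps5 from -0.054 to 0.12 and Mrps26 from -0.10 to 0.015.

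With libraries 1 and 2 alone, 8 Mrpl members were lower and all 5 subunits with other symbols were called. Medians were then 0.24 for Mrpl, 0.28 for Mrps, -0.14 for translation factors, -0.17 for the DNA and transcription list and 0.61 for the respiratory chain, with Mrpl49 at 0.028 and Mrps2 at 0.11, and Mrps5 was called higher at 0.24 (edgeR adjusted p = 0.0057). Upper-quartile factors moved the median of all genes to 0.16. Medians were then 0.49 for Mrpl, 0.34 for Mrps, 0.47 for the subunits with other symbols (5 called), -0.077 for translation factors, 0.33 for assembly, 0.39 for synthetases, 0.31 for the DNA and transcription list, 0.022 for regulators, 0.80 for the respiratory chain and 1.40 for cytoplasmic ribosomal proteins, with Mrpl49 at 0.12, Mrps2 at 0.15 and Mrps26 at 0.10. With total counts alone the median was 0.13 for Mrps and 0.59 for the respiratory chain, with Mrpl20 at -0.032, Mrpl54 at -0.015 and Mrps5 at -0.033.

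Without the filter the median was -0.083 for the DNA and transcription list and 0.082 for regulators. With a mean of at least 10 CPM it was 0.23 for Mrps, -0.045 for translation factors, 0.41 for synthetases, -0.021 for the DNA and transcription list and 0.69 for the respiratory chain, with Mrps2 at 0.036. These filters change which genes are tested. The test against 1.5-fold left 7 Mrpl and 4 Mrps members higher, 1 of each lower, and called 1 subunit with another symbol, 1 translation factor, 2 assembly genes, 2 synthetases, 2 of the DNA and transcription list and 25 of the respiratory chain. An adjusted p of 0.01 left 6 Mrps members higher and 3 translation factors, 5 assembly genes, 4 synthetases and 3 of the DNA and transcription list called. Library totals without Rn45s gave a ratio of 1.14 for the share of counts. For other moves the cause was not tested.

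Libraries with the same number were not taken as pairs. Their deviations from the line means correlated at 0.040, 0.052 and 0.15 over 13467 genes for numbers 1, 2 and 3, which was the check used, and at 0.12, 0.30 and 0.32 over the 77 members alone. Over all genes only library 3 of each line correlated best with its own number. A replicate block ended 1 member's call (Mrps10) and added 1 (Mrpl3).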
